A study of Mus musculus with 6 samples.

Results

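The 10 genes described here encode the classical major histocompatibility complex (MHC) class I molecules of the mouse and the proteins that cut, transport and load their peptides: H2-K1, H2-D1, B2m, Tap1, Tap2, Tapbp, Psmb8, Psmb9, Psmb10 and Nlrc5. They were taken as the rows of the deposited gene tables that carry these symbols, 1 row each, out of 55849 genes, and all 10 passed the filter on low counts that left 16107 genes for testing. Polyadenylated RNA of the descending colon was sequenced in 6 libraries, 3 from Muc2-/- mice and 3 from wild-type C57BL/6 mice. All mice were 12 weeks old and untreated. The labels give neither the background strain of the mutants, the design of the Muc2 allele, nor sex. The mucin MUC2 builds the gel that covers the colonic epithelium, and mice that lack it develop spontaneous colitis.

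Class I molecules show peptides from inside the cell to CD8 T cells and to natural killer (NK) cells. The proteasome cuts proteins into peptides, the transporter formed by TAP1 and TAP2 carries them into the endoplasmic reticulum, and tapasin holds an empty heavy chain with its light chain, beta-2 microglobulin, beside the transporter until a peptide is bound. Interferon-gamma raises most of these genes in many cell types, and it exchanges the constitutive catalytic subunits of the proteasome for the inducible ones of the immunoproteasome. NLRC5 is the transactivator that acts with the RFX, CREB/ATF and NF-Y factors at class I promoters. In the colon, class I is made by epithelial cells as well as by leukocytes, endothelium and stroma.

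Total counts ran from 16627761 to 17465636 in the Muc2-/- libraries and from 16395432 to 20336459 in the wild-type libraries. Muc2 had 757, 1021 and 942 CPM in Muc2-/- 1, 2 and 3, against 2480, 6977 and 2629 CPM in wild-type 1, 2 and 3, where CPM is the count scaled to the library total times its TMM factor. The gene was therefore lower but not at 0 in the libraries labelled Muc2-/- (log2 fold change -2.15, edgeR adjusted p = 0.103), and the deleted part is not named in the labels. Crypts are the material in the sample titles, whereas dissected colon tissue is the material in the protocols. Markers of several tissue layers were present in every library: Epcam, of epithelium, had 2638 to 3724 CPM in Muc2-/- and 1560 to 2262 CPM in wild-type, and Acta2, of smooth muscle, had 367 to 807 CPM in Muc2-/- and 996 to 3330 CPM in wild-type. Among leukocyte markers, Ptprc had 15.3 to 29.2 CPM in Muc2-/- and 7.06 to 31.4 CPM in wild-type.

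RefSeq promoter windows of build GRCm38.p6, from 250 bases before to 50 bases after the annotated start, were at hand for 8 of the 10 genes, all but Tap2 and Nlrc5. Stretches of 4 of them are printed here because H2-K1, H2-D1 and B2m hold the CREB/ATF and NF-Y cores at equal spacing and the window of Tap1 overlaps that of Psmb9. H2-K1 had 2 windows, of which the first listed was used. Positions count from the annotated start, with negative numbers upstream. Each is written 5′ to 3′ on the strand of transcription, from chr17:34000328-34000482 (minus strand, -135 to 20) for H2-K1, chr17:35262899-35263053 (plus strand, -195 to -41) for H2-D1, chr2:122147492-122147646 (plus strand, -195 to -41) for B2m and chr17:34187326-34187516 (plus strand, -230 to -40) for Tap1. Capitals mark matches, on either strand, to the motifs spelled out after the sequences.
H2-K1: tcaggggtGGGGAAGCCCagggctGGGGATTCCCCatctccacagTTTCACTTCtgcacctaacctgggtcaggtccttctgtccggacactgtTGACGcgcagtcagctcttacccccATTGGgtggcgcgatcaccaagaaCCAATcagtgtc
H2-D1: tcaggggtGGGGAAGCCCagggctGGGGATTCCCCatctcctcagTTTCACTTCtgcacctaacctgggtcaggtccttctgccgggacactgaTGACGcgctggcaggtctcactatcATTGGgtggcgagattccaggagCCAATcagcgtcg
B2m: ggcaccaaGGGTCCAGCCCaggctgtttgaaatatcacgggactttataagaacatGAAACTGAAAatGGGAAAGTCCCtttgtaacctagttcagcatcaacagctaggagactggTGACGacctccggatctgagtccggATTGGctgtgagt
Tap1: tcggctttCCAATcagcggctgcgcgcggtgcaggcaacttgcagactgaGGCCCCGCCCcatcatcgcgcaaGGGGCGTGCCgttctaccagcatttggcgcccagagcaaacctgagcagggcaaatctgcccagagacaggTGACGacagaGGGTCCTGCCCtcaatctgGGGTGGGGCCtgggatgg

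The H2-K1 and H2-D1 stretches were identical at 125 of 155 aligned bases (80.6%, without gaps). The annotated starts of the windows used lie 60 bases apart in that alignment. The TGACG core of the cyclic AMP response element, where CREB/ATF factors bind, was found in 5 of the 8 windows and in 20.8% of all 32851 RefSeq promoter windows. The ATTGG core of the Y box, where NF-Y binds, was found in 6 of 8 and in 37.4% of all windows. In H2-K1, H2-D1 and B2m, TGACG began 25 bases before ATTGG in the same direction. In Tap1 the Y box core lay upstream of TGACG and on the other strand. A loose NF-kappaB pattern (GGG, any 5 bases, CC) matched 5 of 8 windows and 50.8% of all windows, at times with overlapping matches on both strands. The interferon-stimulated response element (GAAA, any 2 bases, GAAA) was found in B2m alone among the 8 and in 3.44% of all windows. A shorter form of it, GAANNGAAA, chosen after the sequences had been seen, was found on the minus strand of H2-K1 and H2-D1 and in 7.52% of all windows. The gamma activation site TTCNNNGAA was found in Psmb8 alone and in 8.3% of all windows. The windows of Tap1 and Psmb9, which are transcribed away from each other, share 275 of their 300 bases (91.7%). Their matches to the cyclic AMP response element core, the Y box core and the NF-kappaB pattern were the same bases, read from opposite strands. The counts of 5, 6 and 5 of 8 windows for these motifs therefore include the same sites under both genes. The 8 windows are thus not independent, and the shares of all windows are no test of these counts. All matches listed here describe letters in a window and were not tested against the expression values.

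All 10 genes had higher levels in Muc2-/- colon, by 1.53-fold to 5.12-fold, except that H2-K1 and Tapbp were slightly lower when the libraries were scaled to epithelial markers instead of by TMM. In each of the 10 the lowest Muc2-/- library lay above the highest wild-type library in CPM. The groups were separated in this direction in 13.3% of all tested genes and in the opposite direction in 15.2%. The median log2 fold change of the 10 genes was 1.23, beside -0.01 over all tested genes. None of the 10 passed edgeR's quasi-likelihood test at a Benjamini-Hochberg adjusted p under 0.05 (adjusted p from 0.101 to 0.238), a threshold that 0.106% of tested genes passed as higher and 0.0186% as lower. At an unadjusted p under 0.05, 9 of the 10 were higher, all but H2-K1, beside 8.23% of all tested genes higher and 12.7% lower. DESeq2, at an adjusted p under 0.05, called 8 higher, all but H2-K1 and Tapbp, beside 4.09% of genes higher and 7.41% lower. The number called by edgeR was not the same in every fit. For example, it was 6 with no filter on low counts, where 1.43% of all tested genes were called higher. Without wild-type 3 it was 3, Tap1, Psmb8 and Psmb9, where 1.62% of all tested genes were called higher. The labels do not say how many animals a library holds, so these p-values measure the spread between libraries, and in whole tissue fewer cells of a type and less RNA per cell cannot be told apart.

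**Figure D1:**
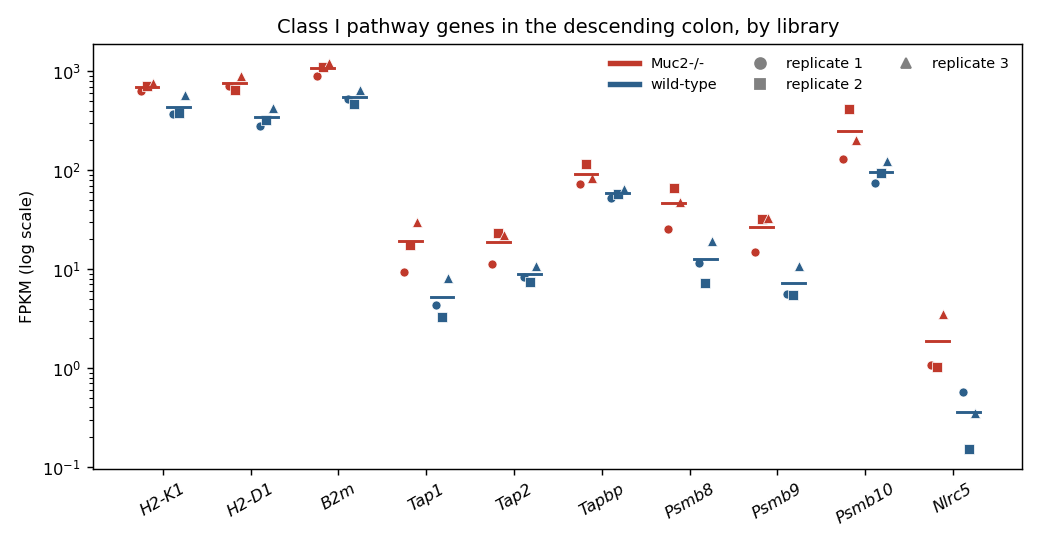
Level of each class I gene in every library, in FPKM on a log axis, with Muc2-/- in red left of wild-type in blue and a bar at each group's mean. On this scale the Muc2-/- libraries lie above the wild-type libraries in all 10 genes (H2-K1 and Tapbp turn negative when scaled to epithelial markers), with B2m highest (means of 1069 FPKM in Muc2-/- and 543 FPKM in wild-type) and Nlrc5 lowest (1.87 FPKM in Muc2-/- and 0.36 FPKM in wild-type).

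Levels were compared between genes in FPKM, the authors' values scaled to gene length and library total. B2m was the highest of the 10 in every library, with a mean of 1069 FPKM in Muc2-/- and 543 FPKM in wild-type. H2-K1 and H2-D1 came next, then Psmb10, with 249 FPKM in Muc2-/- and 96.9 FPKM in wild-type, and Tapbp, with 90.7 FPKM in Muc2-/- and 58.2 FPKM in wild-type. Psmb8, Psmb9, Tap1 and Tap2 had means of 46.4, 26.6, 19.1 and 18.8 FPKM in Muc2-/- and of 12.7, 7.28, 5.25 and 8.85 FPKM in wild-type. The ranges of Tap1 and Tap2 overlapped in Muc2-/-, so their order there is within the spread of libraries. The genes with the highest levels, B2m and the heavy chains, ranked 6 to 9 of 10 by log2 fold change, and Nlrc5, at the lowest level, ranked 1 under TMM.

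The heavy chains H2-K1 and H2-D1 form the groove that holds the peptide. H2-D1 (ENSMUSG00000073411, chromosome 17, 35481706-35486475, plus strand in the count table) had 1851, 1654 and 2297 CPM in Muc2-/- 1, 2 and 3, against 750, 849 and 1080 CPM in wild-type 1, 2 and 3. The lowest Muc2-/- library was 1.53 times the highest wild-type library. Its means were 1934 ± 330 CPM in Muc2-/- and 893 ± 169 CPM in wild-type (SD, n = 3 each), a log2 fold change of 1.11 ± 0.28 (SE) with an edgeR adjusted p of 0.104 and a DESeq2 adjusted p of 0.000406. H2-K1 (ENSMUSG00000061232, chromosome 17, 34214991-34219321, minus strand) had 1871, 2028 and 2215 CPM in Muc2-/-, against 1118, 1126 and 1649 CPM in wild-type. Here the gap was narrower, 1.13 times, with wild-type 3 above the other wild-type libraries. The log2 fold change of H2-K1 was 0.65 ± 0.28 (edgeR adjusted p = 0.238, DESeq2 adjusted p = 0.0609). The heavy chain genes are near copies of each other, and reads that fit several of them could have been divided or dropped by the authors' counting, so the split of counts between H2-K1, H2-D1 and the related H2-Q and H2-T genes is uncertain.

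B2m (ENSMUSG00000060802, chromosome 2, 121978167-121983564, plus strand) encodes beta-2 microglobulin, the light chain that classical heavy chains need to fold and reach the surface. It had 780, 933 and 1032 CPM in Muc2-/-, against 460, 406 and 547 CPM in wild-type. The 3 Muc2-/- libraries were all at least 1.42 times the highest wild-type library, and the spread within each group was narrow. The log2 fold change was 0.96 ± 0.24 (edgeR adjusted p = 0.103, DESeq2 adjusted p = 0.00102).

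TAP1 and TAP2 are the subunits of the peptide transporter. Tap1 (ENSMUSG00000037321, chromosome 17, 34406527-34416199, plus strand) had 52.2, 94.7 and 164 CPM in Muc2-/- 1, 2 and 3, against 24.5, 18.2 and 43.8 CPM in wild-type 1, 2 and 3. The Muc2-/- libraries differed 3.15-fold among themselves and the wild-type libraries 2.40-fold, and the groups did not overlap. Its log2 fold change was 1.85 ± 0.47 (edgeR adjusted p = 0.104, DESeq2 adjusted p = 0.00350). Tap2 (ENSMUSG00000024339, chromosome 17, 34422501-34435295, plus strand) had 43.1, 85.4 and 83.3 CPM in Muc2-/-, against 32.6, 28.4 and 40.1 CPM in wild-type. Muc2-/- 1 lay only 1.07 times above wild-type 3, while the other Muc2-/- libraries were clear of all wild-type libraries. The log2 fold change of Tap2 was 1.07 ± 0.29 (edgeR adjusted p = 0.111, DESeq2 adjusted p = 0.0191).

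Tapbp (ENSMUSG00000024308, chromosome 17, 34134873-34148266, plus strand) encodes tapasin, which ties the empty class I molecule to the transporter. It had 267, 414 and 300 CPM in Muc2-/-, against 197, 209 and 232 CPM in wild-type. The groups did not overlap, and Muc2-/- 2 stood well above the other libraries. With a log2 fold change of 0.62 ± 0.23, Tapbp had the smallest difference of the 10 genes in this fit, although H2-K1 was below it without Muc2-/- 1, Muc2-/- 3, wild-type 1 or wild-type 2 (edgeR adjusted p = 0.184, DESeq2 adjusted p = 0.0819). Its listed span shares 3422 bases with Zbtb22 on the same strand, a gene with 628 to 687 counts in Muc2-/- and 580 to 955 counts in wild-type (log2 fold change 0.01).

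Psmb8, Psmb9 and Psmb10 encode the catalytic subunits of the immunoproteasome, which take the places of the subunits encoded by Psmb5, Psmb6 and Psmb7. Psmb8 (ENSMUSG00000024338, chromosome 17, 34416695-34420428, plus strand) had 86.9, 219 and 160 CPM in Muc2-/- 1, 2 and 3, against 39.9, 25.2 and 63.8 CPM in wild-type 1, 2 and 3. Psmb9 (ENSMUSG00000096727, chromosome 17, 34400961-34406738, minus strand) had 55.3, 115 and 119 CPM in Muc2-/-, against 21.3, 20.5 and 38.4 CPM in wild-type. In both genes Muc2-/- 1 was the lowest mutant library and wild-type 3 the highest control, with gaps of 1.36 and 1.44 times. Psmb8 had a log2 fold change of 1.86 ± 0.43 (edgeR adjusted p = 0.103, DESeq2 adjusted p = 0.00135). Psmb9 had a log2 fold change of 1.85 ± 0.37 and the smallest edgeR adjusted p of the 10 genes, 0.101 (DESeq2 adjusted p = 0.000354). Psmb9 and Tap1 share 212 bases on opposite strands, and the strand setting of the counting is not known here.

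Psmb10 (ENSMUSG00000031897, chromosome 8, 106662367-106665076, minus strand) is the subunit gene that lies outside the MHC. It had 222, 694 and 347 CPM in Muc2-/-, against 131, 161 and 207 CPM in wild-type. The groups almost touched, with Muc2-/- 1 at 1.07 times wild-type 3, and Muc2-/- 2 was 3.13 times Muc2-/- 1. The log2 fold change was 1.34 ± 0.42 (edgeR adjusted p = 0.135, DESeq2 adjusted p = 0.0224), and without Muc2-/- 2 it was 0.79 ± 0.29. Muc2-/- 2 was also the library in which short genes stood highest: the rank correlation across genes of gene length with the library's deviation from the mean was -0.25, beside -0.01 and 0.02 in the other Muc2-/- libraries and 0.04 to 0.15 in wild-type. Psmb10 is listed at 1705 bases, beside a median of 4027 over tested genes, and the part of length in its level was not tested.

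Nlrc5 (ENSMUSG00000074151, chromosome 8, 95160984-95253900, plus strand) is the class I transactivator and had the lowest level of the 10 genes. It had 9.29, 8.59 and 29.5 CPM in Muc2-/- 1, 2 and 3, from 156, 130 and 478 counts, against 5.04, 1.30 and 2.91 CPM in wild-type 1, 2 and 3, from 91, 25 and 61 counts. Muc2-/- 3 was 3.44 times the lowest Muc2-/- library, and the lowest Muc2-/- library was 1.70 times the highest wild-type library. The log2 fold change was 2.36 ± 0.65 (edgeR adjusted p = 0.113, DESeq2 adjusted p = 0.00394), the largest of the 10 genes in this fit. Without Muc2-/- 3 it was 1.56 ± 0.57, below Psmb8 (1.85) and Psmb9 (1.69), and on the log2(FPKM + 1) scale, which understates changes of low genes, it was 0.99, below Psmb8 (1.79). Wild-type 1, which was the lowest or the middle wild-type library for the other 9 genes, was the highest for Nlrc5. It also had the highest Ptprc of all libraries, 31.4 CPM.

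**Figure D2:**
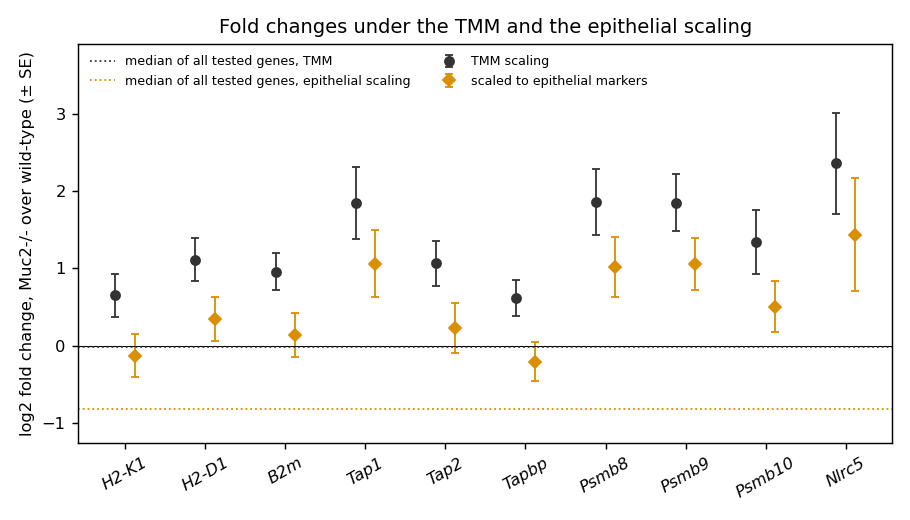
Log2 fold change of each class I gene, Muc2-/- over wild-type, with standard errors, under the TMM scaling (black circles) and under a scaling of each library to epithelial markers (orange diamonds); dotted lines give the median of all tested genes under each. All 10 values are positive with TMM, from 0.62 to 2.36, whereas with the epithelial scaling H2-K1 and Tapbp lie at -0.13 and -0.21 beside a median of -0.82 over all genes.

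Epithelial and muscle markers differed in level between the groups, and their values stand beside those of the class I genes. The 10 epithelial markers summed to 31184 to 45865 CPM in Muc2-/- and 13231 to 24865 CPM in wild-type, with a median log2 fold change of 0.77, so that the sums did not overlap. Of these markers, 4 of 10 were higher at an unadjusted p under 0.05 and 2 in DESeq2, none was lower, and none passed edgeR's adjusted threshold. The 10 smooth muscle markers summed to 2554 to 4571 CPM in Muc2-/- and 5946 to 21110 CPM in wild-type, and all 10 were lower at an unadjusted p under 0.05 (median -1.70; 9 in DESeq2, 0 at edgeR's adjusted threshold). Muscle and epithelial sums thus lay on opposite sides between the groups, and leukocyte sums overlapped. The 23 listed leukocyte markers summed to 287 to 778 CPM in Muc2-/- and 174 to 662 CPM in wild-type, and of the 22 tested 7 were higher at an unadjusted p under 0.05 and 4 in DESeq2 (median 0.63). The 13 listed T and NK cell markers were sparse, with sums of 11.5 to 34.4 CPM in Muc2-/- and 2.66 to 12.7 CPM in wild-type, and of the 9 tested 4 were higher unadjusted and 2 in DESeq2 (median 1.49). The T cell markers Cd3e and Cd8a were not at 0 in any library, whereas Cd8b1 had 0 counts in wild-type 2. Cd3e had 17, 2 and 23 counts in Muc2-/- and 1, 7 and 4 counts in wild-type. Cd8a had 20, 3 and 35 counts in Muc2-/- and 10, 4 and 15 counts in wild-type.

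To set the class I genes against the epithelial content, the libraries were also scaled to the geometric mean of the 10 epithelial markers, a choice made after the data had been seen. On that scale the median of all tested genes was -0.82 and the median of the 10 class I genes was 0.43. H2-K1, at -0.13, and Tapbp, at -0.21, were then slightly lower per unit of epithelial markers, while the other 8 were positive. Tap1 (1.06), Psmb8 (1.02) and Psmb9 (1.06) were the 3 genes with an unadjusted p under 0.05, and none of the 10 passed the adjusted threshold. Of all 16107 tested genes, 69 (0.428%) were called higher and 1995 lower at the adjusted threshold on this scale. The groups stayed apart in 2 genes, Psmb8 and Psmb9, and overlapped in the other 8. The shares of all tested genes that stayed apart, or had an unadjusted p under 0.05, on this scale were not computed. Nlrc5 had the highest value, 1.44, and Psmb10 (0.51), H2-D1 (0.35), Tap2 (0.23) and B2m (0.14) lay between. The part of the tissue's make-up in each difference was not tested.

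Ratios of FPKM within a library need no scaling between libraries, and 6 pairs were compared by an exact two-sided permutation test, whose smallest possible p with 3 libraries against 3 is 0.1, so that none could pass 0.05. Adjusted over the 6 pairs by Benjamini-Hochberg, an exact p of 0.1 became 0.15, that of 0.2 became 0.24 and that of 0.5 remained 0.5. Psmb8 to Psmb5, the inducible to the constitutive chymotrypsin-like subunit, was 0.218, 0.273 and 0.369 in Muc2-/- 1, 2 and 3, against 0.116, 0.0639 and 0.177 in wild-type 1, 2 and 3. The groups did not overlap (difference of log2 ratios 1.35, exact p = 0.1). Psmb9 to Psmb6 was 0.247, 0.243 and 0.514 in Muc2-/-, against 0.0947, 0.0770 and 0.170 in wild-type, again without overlap (difference 1.55, exact p = 0.1). Psmb10 to Psmb7 was 6.96, 12.6 and 10.7 in Muc2-/-, against 5.53, 5.84 and 7.21 in wild-type. Here Muc2-/- 1 lay below wild-type 3, and the groups overlapped (difference 0.67, exact p = 0.2). Listed lengths were 3381 and 899 bases for Psmb8 and Psmb5, and 3660 and 1872 bases for Psmb9 and Psmb6. For Psmb10 and Psmb7 they were 1705 and 3421 bases. Whether the higher standing of short genes in Muc2-/- 2 entered these ratios was not tested.

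The balance of the transporter's subunits was compared in the same way. Tap1 to Tap2 was 0.835, 0.766 and 1.36 in Muc2-/-, against 0.519, 0.443 and 0.753 in wild-type. Every Muc2-/- library was above every wild-type library, the nearest pair being 0.766 in Muc2-/- 2 and 0.753 in wild-type 3 (difference of log2 ratios 0.78, exact p = 0.1). H2-K1 to H2-D1 was 0.887, 1.08 and 0.846 in Muc2-/-, against 1.31, 1.16 and 1.34 in wild-type. All Muc2-/- libraries were below all wild-type libraries for this ratio (difference -0.45, exact p = 0.1), with the limit that reads of the 2 near copies may have been shared. The ratio of light chain to heavy chains overlapped between the groups: B2m to the sum of H2-K1 and H2-D1 was 0.669, 0.814 and 0.729 in Muc2-/-, against 0.797, 0.662 and 0.649 in wild-type (difference 0.07, exact p = 0.5).

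**Figure D3:**
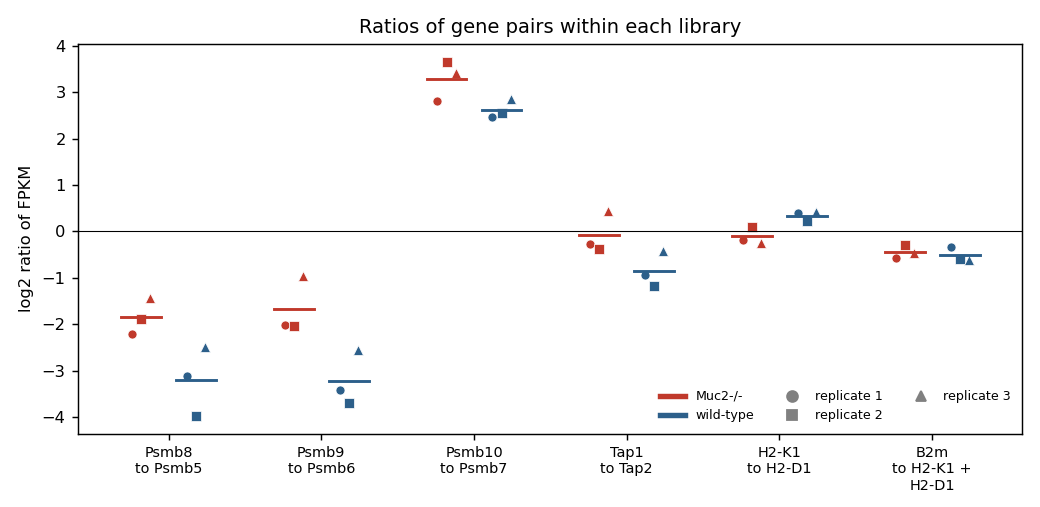
Log2 ratio of FPKM of 6 gene pairs within each library, Muc2-/- in red left of wild-type in blue, with a bar at each group's mean. Psmb10 to Psmb7 and B2m to the heavy chains overlap between the groups and the other 4 pairs do not, with Psmb8 to Psmb5 at means of -1.84 in Muc2-/- and -3.19 in wild-type and H2-K1 to H2-D1 at -0.10 in Muc2-/- and 0.34 in wild-type.

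The libraries of a group differed among themselves in the 10 genes. The mean of their log2 CPM, each centred on its own mean over the 6 libraries, was 0.18, 0.84 and 0.98 in Muc2-/- 1, 2 and 3, and -0.71, -0.99 and -0.30 in wild-type 1, 2 and 3. Muc2-/- 1 was the lowest Muc2-/- library in 8 of the 10 genes, with Muc2-/- 2 lowest for H2-D1 and Nlrc5. Wild-type 3 was the highest wild-type library in 9 of 10, Nlrc5 being the exception. The highest Muc2-/- library differed between genes: H2-K1, H2-D1, B2m, Tap1, Psmb9 and Nlrc5 had it in Muc2-/- 3, and Tap2, Tapbp, Psmb8 and Psmb10 in Muc2-/- 2. Tap2 lay closest to the mean pattern (root mean square difference 0.19 in log2 CPM over 6 libraries) and Nlrc5 farthest from it (0.82).

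Outside the set, the protein-coding genes, of 14036, whose centred pattern over the 6 libraries was most like that mean included Sult6b1, Oas2, Adcy2 and Irf1, with root mean square differences of 0.05, 0.12, 0.16 and 0.18. Irf1 is a transcription factor of the interferon-gamma response, and Oas2 is an interferon-induced antiviral enzyme. Irf1 had 206, 340 and 330 CPM in Muc2-/- 1, 2 and 3, against 123, 126 and 172 CPM in wild-type 1, 2 and 3. Oas2 had 4.58, 6.87 and 6.92 CPM in Muc2-/-, against 2.38, 1.88 and 2.57 CPM in wild-type. Neither overlapped between the groups, and the log2 fold changes of Irf1 and Oas2 were 1.05 ± 0.26 and 1.42 ± 0.36 (edgeR adjusted p = 0.103 and 0.104). The mean pattern already separates the groups, so genes picked for their likeness to it differ in the same direction by that choice. Their differences are therefore no separate evidence. Sult6b1, a sulfotransferase, and Adcy2, an adenylate cyclase, were at 1.34 and 4.38 CPM on average in Muc2-/- and at 0.476 and 1.70 CPM in wild-type.

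Of 67 tested genes in 6 further lists of the pathway, 16 were higher and 1 was lower at an unadjusted p under 0.05, none passed edgeR's adjusted threshold, and DESeq2 called 11 higher and 1 lower. Their median log2 fold change was 0.41, and in 22 of the 67 every Muc2-/- library lay above every wild-type library, against 1 below. Over all tested genes, 8.23% were higher and 12.7% lower at an unadjusted p under 0.05, and DESeq2 called 4.09% higher and 7.41% lower. The groups were separated in 13.3% of all tested genes with Muc2-/- above and in 15.2% with Muc2-/- below. The same shares stand beside the counts of every other list. Under the epithelial scaling none of the 67 was called higher and 2, H2-Q2 and Mr1, were called lower. Over all 16107 tested genes, that scaling called 69 higher and 1995 lower.

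Of 18 tested heavy chains beyond H2-K1 and H2-D1, 5 were higher and 1 lower at an unadjusted p under 0.05 (4 and 1 in DESeq2), with a median of 0.21. The 3 with the highest counts were H2-T23, H2-T22 and Fcgrt. H2-T23 encodes Qa-1, which shows leader peptides of other class I chains to NK receptors, and it had 312, 595 and 330 CPM in Muc2-/-, against 165, 240 and 307 CPM in wild-type. H2-T22, a ligand of some gamma-delta T cell receptors, had 90.7, 118 and 104 CPM in Muc2-/-, against 51.9, 55.2 and 68.5 CPM in wild-type. Both were separated between the groups (log2 fold changes 0.80 ± 0.34 and 0.83 ± 0.19). Fcgrt, the heavy chain of the neonatal Fc receptor, which binds immunoglobulin and no peptide, had means of 80.9 ± 40.1 CPM in Muc2-/- and 72.1 ± 10.8 CPM in wild-type with overlapping libraries. Chosen after their values were seen, the other 4 genes past the unadjusted threshold were H2-Q4 (log2 fold change 1.20), H2-Q7 (2.17) and H2-Q10 (1.44), which were higher, and Mr1 (-1.69), which was lower. Mr1 presents vitamin B metabolites to mucosal-associated invariant T cells, and it had 4.41, 1.45 and 2.04 CPM in Muc2-/-, against 12.3, 8.34 and 4.96 CPM in wild-type.

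Among the proteasome genes, the inducible catalytic subunits stood above their constitutive counterparts in fold change. Psmb5 had means of 145 ± 59.7 CPM in Muc2-/- and 97.2 ± 6.96 CPM in wild-type (SD, n = 3 each), Psmb6 had 159 ± 72.5 CPM in Muc2-/- and 122 ± 11.9 CPM in wild-type, and Psmb7 had 79.9 ± 26.6 CPM in Muc2-/- and 53.5 ± 5.28 CPM in wild-type. Their log2 fold changes were 0.58, 0.37 and 0.58, of which only that of Psmb7 had an unadjusted p under 0.05 (0.0496), and DESeq2 called none. The 11 other core subunits had a median of 0.59, with 2 higher at an unadjusted p under 0.05 and 0 in DESeq2. The 3 with the highest counts, Psmb4, Psmb1 and Psma1, had log2 fold changes of 0.95, 0.45 and 0.59. The summed level of the 11 subunits was 1459, 2733 and 1645 CPM in Muc2-/- 1, 2 and 3, against 1173, 1307 and 1416 CPM in wild-type 1, 2 and 3. Muc2-/- 2 alone was far above the rest. It was also the library in which short genes stood highest, and the part of gene length in these sums was not tested.

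Of 8 genes for the proteasome activator and assembly, 3 were higher at an unadjusted p under 0.05 and 2 in DESeq2, with a median of 0.64. Psme1 and Psme2 encode the subunits of the interferon-inducible PA28 cap, which opens the core for peptide release. Psme1 had 177, 323 and 219 CPM in Muc2-/-, against 106, 112 and 137 CPM in wild-type. Psme2 had 167, 453 and 222 CPM in Muc2-/-, against 99.9, 128 and 139 CPM in wild-type. Both were separated between the groups (log2 fold changes 1.02 ± 0.26 and 1.20 ± 0.37, edgeR adjusted p = 0.105 and 0.134). Pomp, the assembly factor that is needed for new proteasome cores, had 131, 330 and 159 CPM in Muc2-/-, against 105, 127 and 102 CPM in wild-type (log2 fold change 0.89 ± 0.35).

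Of 9 genes for peptide loading and trimming, 2 were higher at an unadjusted p under 0.05 and in DESeq2 (median 0.41). Pdia3, the disulfide isomerase of the loading complex, had 801, 1196 and 882 CPM in Muc2-/-, against 502, 559 and 650 CPM in wild-type (log2 fold change 0.75 ± 0.26). Thop1, a cytosolic peptidase named after its values were seen, was the other (0.58 ± 0.17). The chaperones Calr and Canx had log2 fold changes of 0.41 ± 0.28, with overlapping libraries, and 0.29 ± 0.19, without overlap.

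Of 18 tested regulators, 3 were higher at an unadjusted p under 0.05 and in DESeq2 and none was lower (median 0.17). Irf1 was among them, as was Socs1, a feedback inhibitor of cytokine signalling (2.08 ± 0.55, named after its values were seen). The interferon-gamma receptor genes Ifngr1 and Ifngr2 had log2 fold changes of -0.12 ± 0.37 and 0.31 ± 0.23, with overlapping libraries. Ifng itself had 1, 0 and 8 counts in Muc2-/- 1, 2 and 3 and 0 counts in each wild-type library, too few to be tested. Rfx5, the DNA-binding subunit of the RFX complex, had 6.13, 4.36 and 9.21 CPM in Muc2-/-, against 12.0, 7.30 and 6.06 CPM in wild-type (-0.36 ± 0.40). Ciita, the class II counterpart of Nlrc5, had 10.7, 7.07 and 22.9 CPM in Muc2-/-, against 13.4, 1.77 and 3.81 CPM in wild-type, with overlap in wild-type 1 (1.10 ± 0.74).

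**Figure D4:**
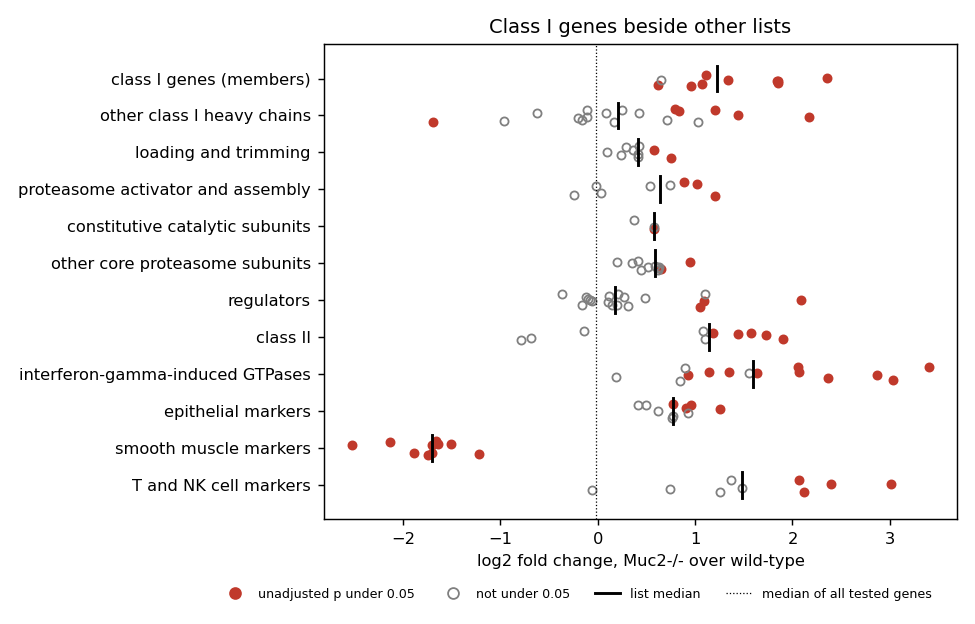
Log2 fold change of every tested gene of the class I set and of the lists beside it, Muc2-/- over wild-type under TMM scaling; filled red points have an unadjusted edgeR p under 0.05, bars mark list medians and the dotted line the median of all tested genes. The class I set has its median at 1.23, class II at 1.14, the interferon-gamma-induced GTPases at 1.59, epithelial markers at 0.77 and smooth muscle markers at -1.70; under the epithelial scaling H2-K1 and Tapbp turn negative.

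Class II and the interferon-gamma-induced GTPases were measured in the same libraries, so their values stand side by side with those of class I and share its wild-type libraries. Of 10 class II genes, 5 were higher at an unadjusted p under 0.05 and 4 in DESeq2, with a median of 1.14. The log2 fold change was negative in 3 of the 10, down to -0.78. Cd74, the invariant chain, had 500, 956 and 1099 CPM in Muc2-/-, against 451, 97.6 and 225 CPM in wild-type. Of 14 GTPases, which act on the vacuoles of intracellular microbes, 10 were higher at an unadjusted p under 0.05 and 8 in DESeq2, with a median of 1.59. Their sums were 298, 473 and 971 CPM in Muc2-/- 1, 2 and 3, against 204, 120 and 260 CPM in wild-type 1, 2 and 3. Class II sums were 1104, 1707 and 2176 CPM in Muc2-/- 1, 2 and 3. Wild-type 1 had the highest class II sum of its group, 1077 CPM, beside 239 and 503 CPM in wild-type 2 and 3. For 9 of the 10 class I genes, in contrast, wild-type 3 was the highest of that group.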

How the data were processed

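Sample titles gave the group and replicate number of each library. The authors deposited whole-number gene counts, which are not normalized, and FPKM values. The submitters' processing notes list mm10 as build and, with no order given, DESeq2 1.20.0, featureCounts 1.5.0-p3, HISAT2 2.0.5 and StringTie 1.3.3b. The deposited FPKM equal counts per gene length and library total times a factor of 0.860 to 1.14. For 0 of the 10 genes did the table's coordinates match GENCODE M21 of GRCm38, and for 10 of 10 the widths did, so they belong to another assembly and are printed as deposited. They are not to be joined with the RefSeq promoter coordinates.

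Counts were fitted with edgeR 4.0.16 in R 4.3.3 (TMM factors, default low-count filter with minima of 10 per library and 15 in all, quasi-likelihood test on genotype), and p-values were adjusted by Benjamini-Hochberg over all 16107 genes at 0.05. Centred log2 CPM used a prior count of 2. Each SD covers 3 libraries. Ratios of FPKM were compared by an exact two-sided permutation test over 20 arrangements. The edgeR, DESeq2 and limma-voom fits were tested on simulated counts, and the permutation test on fixed numbers with a known answer. Replicates differed by more than counting noise (chi-square per degree of freedom 25.0 to 148), and all were kept.

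The genes and lists were chosen with earlier results of these data known. Genes named were the 10, their constitutive counterparts, Psme1, Psme2, Irf1, Rfx5, Ciita and Ifng, any gene of a pathway list that edgeR called or else its 3 with the highest mean CPM, and the 5 most alike in pattern. Others were named after their values were seen, and 1 gene under this rule is not reported here. Alternatives were RLE, upper-quartile or no factors, other filters, DESeq2 1.42.0, limma-voom (limma 3.58.1), limma on log2(FPKM + 1) or log2(FPKM + 0.1), a replicate block, an adjusted p under 0.1 and each library left out. After the data had been seen, the epithelial scaling and a fit without Muc2-/- 2 and wild-type 1 were added.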

Additional observations from a re-analysis of the deposited data

How the results depend on the processing

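The 10 class I genes kept a positive log2 fold change under all settings run, except that the epithelial scaling gave -0.13 for H2-K1 and -0.21 for Tapbp. That scaling also lowered their median to 0.43, beside 1.10 to 1.49 when single libraries were left out. It lowered the number with an unadjusted p under 0.05 to 3, beside 8 to 10 when single libraries were left out. Without Muc2-/- 2 and wild-type 1 together, the median was 1.01 and 6 had an unadjusted p under 0.05. The share of all tested genes with an unadjusted p under 0.05 was not computed for these settings. The numbers of class I genes called higher were 6 with no filter on low counts, 8 in DESeq2, 4 with the replicate block and 0 to 3 when single libraries were left out, and 0 under the other settings. The further pathway genes called higher numbered 7 with no filter, 11 in DESeq2, 2 with the replicate block and 0 to 2 when single libraries were left out, and those called lower 1 in DESeq2 and 2 under the epithelial scaling. Over all genes, the numbers called higher and lower were 22 and 5 with RLE factors, 7 and 1 with no composition factors, 384 and 815 with no filter, 659 and 1193 in DESeq2, 11 and 2 with limma-voom, 3 and 0 with limma on log2(FPKM + 1), 4 and 0 with log2(FPKM + 0.1), 37 and 9 with a minimum of 1 FPKM, 225 and 448 with the replicate block, 69 and 1995 under the epithelial scaling, 98 and 54 at an adjusted p under 0.1, and 1 and 0 without Muc2-/- 2 and wild-type 1 together. Leaving out single libraries gave 0 to 272 higher and 0 to 954 lower, and the highest counts came without wild-type 3. The ratio of B2m to the heavy chains had a difference of -0.0020 to 0.17 when single libraries were left out, negative without Muc2-/- 2. The cause of these changes was not tested. Same-numbered libraries correlated at 0.09, 0.28 and 0.06 in their deviations from the group means. Muc2-/- 1 and 2 correlated best with the wild-type library of their own number. Muc2-/- 3 correlated best with wild-type 1, narrowly, at 0.0633 beside 0.0604 with wild-type 3. On these values the numbers were not taken to pair the animals. With no composition factors the median of all genes was -0.20. Precision is limited by 3 libraries a group, and for Nlrc5 by 25 counts in wild-type 2.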

Other observations

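Receptors that read class I were near the limit of these libraries. Of 8 listed, 4 had enough counts to be tested, and 2 of these, Klrk1 and Klrd1, were higher at an unadjusted p under 0.05, with 0 called by DESeq2 and 0 at edgeR's adjusted threshold. Klrd1, the partner chain of the NK receptors for Qa-1, had 1.91, 1.52 and 1.92 CPM in Muc2-/- 1, 2 and 3, against 0.554, 0.104 and 0.858 CPM in wild-type 1, 2 and 3, without overlap. Pirb, an inhibitory class I receptor of myeloid and B cells, had 3.57, 3.11 and 8.65 CPM in Muc2-/-, against 3.66, 1.77 and 0.906 CPM in wild-type, with overlap. Cd8a had a log2 fold change of 1.25 ± 0.86, also with overlap. Endothelial and fibroblast markers, whose cells also make class I, had median log2 fold changes of -0.41 and -0.54. At an unadjusted p under 0.05, 1 of 7 endothelial and 3 of 7 fibroblast markers were lower and none was higher. The 10 class I genes summed to 5237, 6247 and 6747 CPM in Muc2-/-, against 2781, 2844 and 3905 CPM in wild-type.

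The RefSeq windows of Tapbp, Psmb8 and Psmb10 differed from those printed. Tapbp held the Y box core without TGACG, Psmb8 held the gamma activation site and none of the other motifs searched, and Psmb10 held none of them. The mitochondrially encoded share of counts was 3.50%, 1.04% and 3.30% in Muc2-/- 1, 2 and 3, against 8.98%, 5.30% and 3.49% in wild-type 1, 2 and 3, and its part in the class I values was not tested.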
